A study of Mus musculus with 6 samples.

Results

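The genes described here encode 3 linked silencing machines of the nucleus: KAP1 with the H3K9 methyltransferase SETDB1 and its cofactor ATF7IP, the HUSH complex, and 2 MORC ATPases. The rule takes each row of the deposited RNA sequencing table whose symbol is Trim28, Setdb1, Atf7ip, Mphosph8, Fam208a, Pphln1, Morc2a or Morc3, and all 8 symbols were found among its 10128 genes. Mouse embryonic stem (ES) cells derived from the E14Tg2a line, of 129/Ola background and at passages 12 to 18, were grown in serum with leukaemia inhibitory factor. The 6 libraries are 3 of Tex19.1+/- cells, which keep 1 working copy of Tex19.1, and 3 of Tex19.1-/- cells, which have none. Cells with both copies were not analysed here, so the baseline is itself a mutant. The labels do not say how many clones the libraries come from, nor whether they are separate cultures, so the p-values measure the spread between these libraries, which may be technical.

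KAP1, the protein of Trim28, is a scaffold that KRAB zinc finger proteins bring to DNA, above all to endogenous retroviruses. It recruits SETDB1, which trimethylates lysine 9 of histone H3, and ATF7IP keeps SETDB1 stable and in the nucleus. HUSH is built from TASOR (the product of Fam208a), periphilin (Pphln1) and MPP8 (Mphosph8), whose chromodomain reads methylated H3K9; it silences young LINE-1 elements and transgenes together with SETDB1 and the ATPase MORC2. In ES cells these factors keep retrotransposons, some germline genes and imprinted alleles silent. The Tex19.1 protein is found in the germline, the placenta and pluripotent cells, and mice without it express some retrotransposons more strongly.

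Upstream sequence is shown for the genes at both ends of the range, Trim28 and Mphosph8 with the largest log2 fold changes and Setdb1 with the smallest. Each line is the 250 bases before the annotated start in RefSeq on GRCm38.p6, 5′ to 3′ on the gene's strand, at chr7:13023902-13024151 (plus strand) for Trim28, chr14:56667998-56668247 (plus strand) for Mphosph8 and chr3:95357203-95357452 (minus strand) for Setdb1. The start used for Mphosph8 is that of the promoter table, a few bases inside the gene's annotated span. Capitals mark matches on either strand to the motifs searched. These were GGGCGG for SP1 factors, CCAAT for the factor NFY, CCGGAAG for ETS factors, CACGTG for the E-box, TGACGTCA for the cyclic AMP response element (CRE) and TATAAA for the TATA box; no motif of these contains another.
Trim28: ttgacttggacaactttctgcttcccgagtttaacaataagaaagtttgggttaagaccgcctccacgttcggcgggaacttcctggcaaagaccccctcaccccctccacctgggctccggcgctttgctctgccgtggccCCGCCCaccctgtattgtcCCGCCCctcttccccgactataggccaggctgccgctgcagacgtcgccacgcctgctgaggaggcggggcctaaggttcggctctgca
Mphosph8: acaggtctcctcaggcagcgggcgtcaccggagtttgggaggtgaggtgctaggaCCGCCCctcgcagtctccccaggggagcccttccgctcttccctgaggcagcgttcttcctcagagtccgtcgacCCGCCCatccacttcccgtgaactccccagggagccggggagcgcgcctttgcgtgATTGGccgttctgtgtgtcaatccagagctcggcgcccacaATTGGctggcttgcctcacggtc
Setdb1: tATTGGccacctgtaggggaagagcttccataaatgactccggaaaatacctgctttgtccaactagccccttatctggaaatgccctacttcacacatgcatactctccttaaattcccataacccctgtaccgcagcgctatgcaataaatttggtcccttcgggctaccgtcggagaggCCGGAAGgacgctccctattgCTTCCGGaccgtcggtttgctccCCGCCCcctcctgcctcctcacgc
All 3 windows hold GGGCGG, at 2 places for Trim28, 2 for Mphosph8 and 1 for Setdb1. That motif occurs in 60.8% of the 9802 RefSeq windows of the same length that belong to genes of the table, and in 32.7% of all 32851 windows. CCAAT was found at 2 places for Mphosph8 and 1 for Setdb1 and at 0 for Trim28, against 35.9% of the windows of measured genes. CCGGAAG was found at 2 places for Setdb1 alone among the 3, against 14.8%. No E-box, CRE or TATA box match lay in the 3 windows. Their GC content was 62.0% for Trim28, 65.6% for Mphosph8 and 54.4% for Setdb1, around the median of 60.4% for windows of measured genes. A match describes letters only, and neither it nor its absence was tied to the fold changes.

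In Tex19.1-/- cells 5 of the 8 genes were slightly higher and none was lower. Trim28, Mphosph8, Pphln1, Morc3 and Atf7ip rose by 6.66% to 15.3%, and Fam208a, Morc2a and Setdb1 did not pass the threshold, an adjusted p under 0.05 over all genes in the authors' deposited table. The changes are small beside the largest of the table: 0 of the 8 reached 2-fold, a size that 148 genes of the table reached. The median log2 fold change of the 8 was 0.11, against 0.00 for all 10128 genes. Calls are common in this table. At the same threshold 25.2% of all genes were called higher, 26.5% lower and 51.7% in either direction, beside 62.5% of the 8 called higher and 0 called lower. These shares vary with level. Among the genes nearest in level to each of the 8, between 21.9% (Pphln1) and 40.5% (Trim28) were called higher. Between 11.3% (Trim28) and 25.6% (Morc3) of them were called lower. All 8 fold changes were above 0, beside 50.8% of all genes, though the intervals of Fam208a, Morc2a and Setdb1 span 0. None of the 8 was thus lower at an unadjusted p under 0.05 either. No test was made of this direction, since the genes were chosen with earlier results known.

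The authors' table gives 1 fold change, 1 mean level in CPM (read counts scaled to the size of the library), 1 p-value and 1 adjusted p per gene. Values of single libraries and their depth were not used here, so no standard deviation can stand beside a level. The direction of the fold change is not named in the table and is read from Tex19.1, at -6.92 in the authors' deposited table, as Tex19.1-/- over Tex19.1+/-. As the error of a fold change, the text gives the standard error that a normal test would need to reach the deposited p-value, called the implied error, and the 95% interval that follows from it. As the level in each genotype, it gives the 2 CPM values that have the deposited mean and fold change when both genotypes weigh equally.

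**Figure D1:**
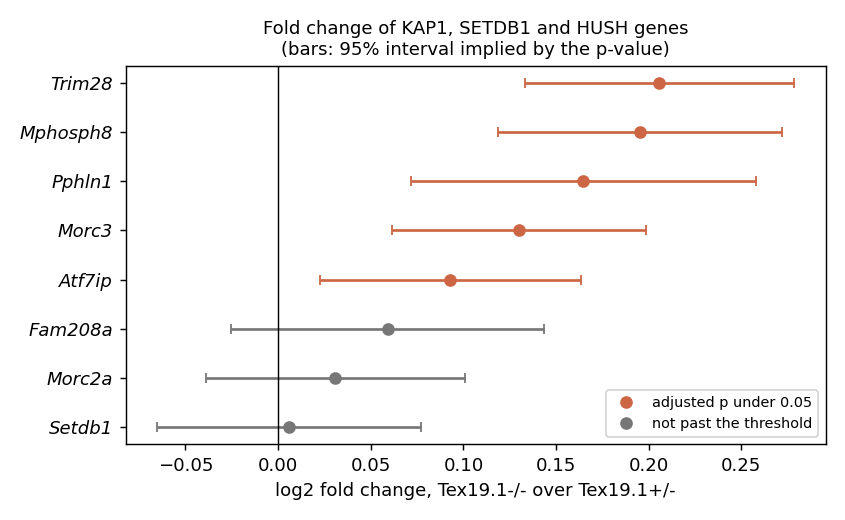
Log2 fold change of the 8 genes (horizontal axis, Tex19.1-/- over Tex19.1+/-), ordered by size; points are the deposited values and bars the 95% interval implied by the p-value. The intervals of Trim28, Mphosph8, Pphln1, Morc3 and Atf7ip lie above 0, and those of Fam208a, Morc2a and Setdb1 span it.

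Trim28 is the scaffold on which the KAP1 complex is built, and it was by far the most abundant of the 8. It lies on chromosome 7 from 13024152 to 13031032 (GRCm38, plus strand, ENSMUSG00000005566.14). Its implied level was 2060 CPM in Tex19.1+/- cells and 2375 CPM in Tex19.1-/- cells. Its log2 change in the authors' deposited table was 0.21 (implied error 0.04, adjusted p = 1.50e-07), a rise of 15.3% with an interval of 9.68% to 21.3%. Trim28 was rank 19 of all genes in mean level, so the genes taken as nearest to it in level are the most abundant of the table and nearly all of them lie below it. Of these 40.5% were called higher and 11.3% lower, and their median log2 fold change was 0.07. A size at least that of Trim28 was reached by 28.4% of all genes in either direction.

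Setdb1, the methyltransferase that KAP1 recruits, differed least. It lies on chromosome 3 from 95323525 to 95357202 (minus strand, ENSMUSG00000015697.14), with implied levels of 165.6 CPM in Tex19.1+/- and 166.3 CPM in Tex19.1-/- cells. Its log2 change in the authors' deposited table was 0.01 (implied error 0.04, adjusted p = 0.906). The interval runs from -4.41% to 5.49%, so a change of Setdb1 as large as the rise of Trim28 lies outside it, while any change between these bounds does not. Set against genes of like expression the value of Setdb1 turned from above to below 0, at -0.02, and set against its chromosome neighbourhood it was 0.07.

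Atf7ip, the SETDB1 cofactor, was between these values. The gene lies on chromosome 6 from 136518789 to 136610850 (plus strand, ENSMUSG00000030213.12). Its implied levels were 107.3 and 114.4 CPM in Tex19.1+/- and Tex19.1-/- cells. In the authors' deposited table its log2 fold change was 0.09 (implied error 0.04, adjusted p = 0.0213), a rise of 6.66%. Of the 5 genes that rose it had the highest adjusted p, and it alone of them did not pass a threshold of 0.01. With a trend on GC content and transcript length subtracted, its log2 fold change was 0.14.

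Of the HUSH core, the chromodomain reader and periphilin rose and the scaffold TASOR did not pass. Mphosph8, on chromosome 14 from 56668235 to 56697430 (plus strand, ENSMUSG00000079184.10), had implied levels of 79.7 CPM in Tex19.1+/- and 91.3 CPM in Tex19.1-/- cells. Its log2 change in the authors' deposited table was 0.20 (implied error 0.04, adjusted p = 2.74e-06), a rise of 14.5% with an interval of 8.57% to 20.7%. Pphln1, on chromosome 15 from 93398345 to 93491913 (plus strand, ENSMUSG00000036167.16), encodes the RNA-binding subunit and was the least abundant of the 8. Its implied levels were 26.8 and 30.02 CPM in Tex19.1+/- and Tex19.1-/- cells. The authors' deposited table gives it a log2 change of 0.16 (implied error 0.05, adjusted p = 0.00156), a rise of 12.1% with an interval of 5.09% to 19.6%. Fam208a, named Tasor in RefSeq, lies on chromosome 14 from 27423674 to 27483555 (plus strand, ENSMUSG00000040651.9). Its implied levels were 128.3 CPM in Tex19.1+/- and 133.6 CPM in Tex19.1-/- cells, with a log2 change of 0.06, per the authors' deposited table (implied error 0.04, adjusted p = 0.249). This value of Fam208a was 0.03 against genes of like expression and 0.04 against its chromosome neighbourhood. Its interval, from -1.74% to 10.5%, overlaps those of Mphosph8 and Pphln1, and the difference between subunits was not tested.

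The MORC proteins are GHKL-type ATPases that compact chromatin. Morc3, which is tied to silencing of endogenous retroviruses, lies on chromosome 16 from 93832121 to 93876077 (plus strand, ENSMUSG00000039456.10). Its implied levels were 147.6 CPM in Tex19.1+/- and 161.5 CPM in Tex19.1-/- cells. The authors' deposited table puts Morc3 at a log2 change of 0.13 (implied error 0.03, adjusted p = 0.000657), a rise of 9.41% with an interval of 4.34% to 14.7%. Morc2a, the mouse counterpart of the HUSH partner MORC2, lies on chromosome 11 from 3649189 to 3690477 (plus strand, ENSMUSG00000034543.15). It had implied levels of 106.8 and 109.1 CPM in Tex19.1+/- and Tex19.1-/- cells and a log2 change of 0.03, per the authors' deposited table (implied error 0.04, adjusted p = 0.482), with an interval of -2.65% to 7.23%. The intervals of both MORC genes overlap, and their difference was not tested.

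**Figure D2:**
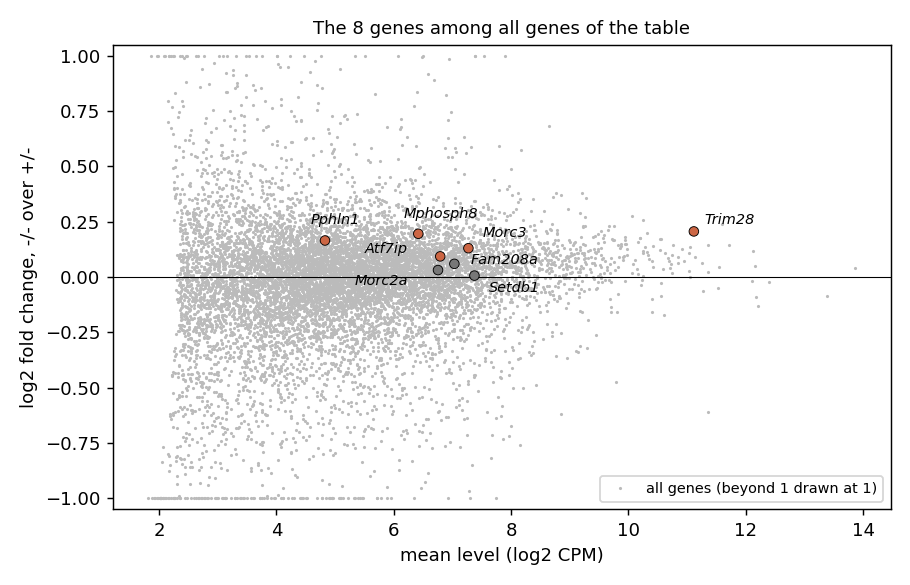
Log2 fold change (vertical axis, Tex19.1-/- over Tex19.1+/-, values beyond 1 drawn at 1) against mean level (horizontal axis, log2 CPM) for all 10128 genes in grey, with the 8 genes in orange where the adjusted p is under 0.05 and dark grey otherwise. The 8 genes lie between 0.01 and 0.21, within the bulk of genes of their level, and Trim28 stands at the right edge among the most abundant genes.

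Per length, Trim28 stood far above the other genes. Levels were divided by the length of the longest annotated transcript, which gives 683 CPM per kb for Trim28, rank 62 of the 9707 genes with a length. Morc3 followed at 37.0 CPM per kb, then Setdb1 at 29.4, Mphosph8 at 29.1, Morc2a at 19.09, Fam208a at 17.3, Atf7ip at 13.8 and Pphln1 at 7.95 CPM per kb. Trim28 was thus 23.3 times Setdb1 on this scale, while Mphosph8 was 0.991 times Setdb1. The spread of these levels between libraries was not analysed here, so the order of close neighbours is a description only. Because of its abundance, Trim28 made up 87.7% of the implied gain of 359.9 CPM summed over the 8 genes, and the other 7 together gained 44.2 CPM.

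Position was examined to set each gene beside those around it on its chromosome. The 8 genes lie on 7 chromosomes, with Mphosph8 and Fam208a both on chromosome 14. The medians of up to 20 measured genes on each side ran from -0.06 beside Setdb1 to 0.04 beside Morc2a, and each gene that rose also lay above its own neighbourhood, by 0.13 to 0.20 on the log2 scale. Relative to its neighbourhood Mphosph8 had the highest value, 0.20, and Morc2a stood at -0.01. Beside Mphosph8 the 20 genes toward the start of the chromosome had a median of -0.11 and the 20 on the other side 0.02.

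Of the 16 nearest measured neighbours, 5 rose, 8 fell and 3 did not pass, beside 25.2% higher and 26.5% lower among all genes. Chmp2a, a membrane remodelling gene that ends 0.973 kb past the end of Trim28 on the opposite strand, was at 0.21 in the authors' deposited table, as was Trim28; the neighbour on its other side, Zbtb45, was at 0.00 (adjusted p = 0.962). Beside Mphosph8, Parp4 stood at -0.59 and Pspc1, a paraspeckle protein gene, at 0.19 in the authors' deposited table. Zcrb1 starts 4 bases from Pphln1 on the opposite strand. It was at 0.13 by the authors' deposited table (adjusted p = 0.076), next to 0.16 for Pphln1. On the other side of Pphln1, Twf1 (1086 kb away) was at -0.18. Beside Morc3, the chromatin assembly factor gene Chaf1b stood at 0.19 and Dopey2 at -0.26 in the authors' deposited table. Around Atf7ip, Emp1 (1136 kb away) was at -0.43 and the histone gene H2afj (197.4 kb away) at 0.40 in the authors' deposited table. The long noncoding RNA gene Tug1, which starts 375 bases from Morc2a on the opposite strand, was at 0.09 (adjusted p = 0.0592), and Tcn2 at -0.20, in the authors' deposited table. Both neighbours of Setdb1, Cers2 at -0.25 and Arnt at -0.18, fell in the authors' deposited table. Arhgef3 at -0.24 and Ccdc66 at 0.21 flank Fam208a in the authors' deposited table. Annotated ends of Setdb1 and Cers2 overlap by 75 bases and those of Fam208a and Ccdc66 by 2466 bases, on opposite strands, and the strand setting of the counting is not given in the sources used here, so reads there may have been lost or assigned to either gene.

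**Figure D3:**
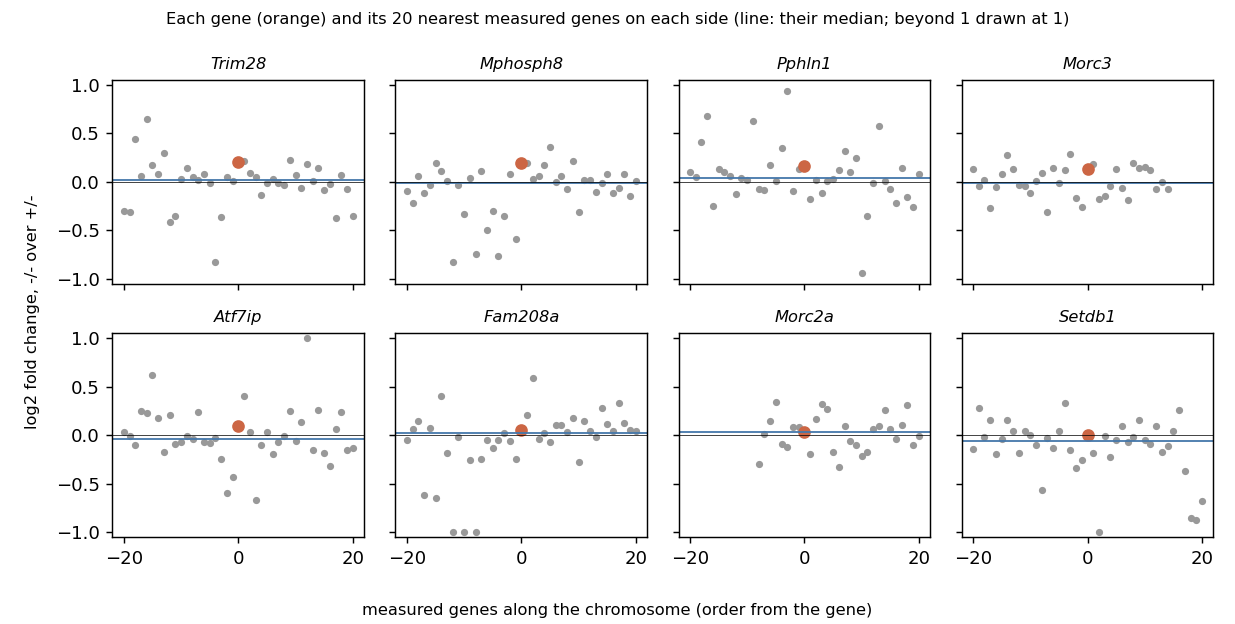
For each of the 8 genes (orange, at 0 on the horizontal axis), log2 fold changes of the nearest measured genes in chromosome order, up to 20 on each side (grey, values beyond 1 drawn at 1), with their median as a blue line. The medians lie between -0.06 and 0.04, below the orange point in every panel except that of Morc2a.

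Genes of proteins that work with these complexes were called in both directions, and most of them did not pass. Of 25 measured partner genes (of 29 symbols listed, with some genes under more than 1 name), 8 rose, 3 fell and 14 did not pass, with a median log2 fold change of 0.01. That is 32% higher and 12% lower, beside 25.2% and 26.5% of all genes. By p-value the authors' deposited table ranks first the HP1 gene Cbx1 at 0.24, Chaf1b at 0.19, the phosphatase regulator gene Ppp1r10 at -0.17 and the NuRD remodeller gene Chd3 at 0.30. HP1 proteins bind methylated H3K9 and KAP1; the other 2 HP1 genes, named with their values known, were Cbx3 at 0.18 (adjusted p = 8.9e-05) and Cbx5 at -0.07 (adjusted p = 0.101), both from the authors' deposited table. SUMO attached to KAP1 attracts SETDB1; of the SUMO genes, named with their values known, Sumo2 was at 0.15, Sumo3 at 0.09 and the ligase gene Pias1 at -0.15 in the authors' deposited table.

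Relatives of the 8 genes were measured for 10 of 11 symbols, with a median of 0.02. Of these relatives 4 rose (40%) and 2 fell (20%), beside 25.2% and 26.5% of all genes. Among the relatives Cdyl2, a chromodomain gene, stood at -0.49, Morc4 at -0.46, the germline MORC gene Morc1 at 0.19 and Trim27 at 0.11 in the authors' deposited table. Methyltransferases of H3K9 and their partners, Setdb1 included, had 3 of 9 measured genes higher (33.3%) and 2 lower (22.2%). The enzyme gene Ehmt2, which makes H3K9me2 outside the KAP1 pathway, was at -0.42, Prdm2 at -0.17, Suv39h1 at 0.15 and Wiz, a partner of the EHMT enzymes, at 0.14 in the authors' deposited table. Demethylases of H3K9 had 2 of 10 measured genes higher (20%) and 5 lower (50%), with a median of -0.05. Phf2 at -0.31, Jmjd1c at -0.14, Kdm7a at -0.18 and Kdm3a at 0.12 led these by p-value in the authors' deposited table.

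KRAB zinc finger genes, whose proteins choose where KAP1 binds, were measured for 10 of 17 symbols. Of these 1 rose (10%), 5 fell (50%) and 4 did not pass, beside 25.2% higher and 26.5% lower among all genes. The median log2 fold change of the 10 was -0.08. Zfp600, per the authors' deposited table, was at -0.35, Zfp809, which represses murine leukaemia provirus, at -0.31, Zfp819 at 0.19 and Zfp961 at -0.18. Zfp600 has near-identical relatives, among which its reads may have been split. Zfp57, a factor that guards imprinted alleles, and Zfp445, of the same list, are named with their values known. The authors' deposited table has Zfp57 at -0.03 (adjusted p = 0.437) and Zfp445 at -0.13 (adjusted p = 0.00183).

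Germline genes that H3K9 methylation and DNA methylation help to keep silent in ES cells were measured for 9 of 16 symbols. The measured genes had mean levels of up to 34.7 CPM, beside a median of 33.0 CPM over all genes, so they were not fully silent here. Of these 0 rose, also at an unadjusted p under 0.05 of the authors' deposited table, 5 fell and 4 did not pass, with a median of -0.18; 55.6% were called lower, beside 26.5% of all genes. In the authors' deposited table Piwil2 was at -1.23, the meiotic gene Hormad1 at -1.20, Mael at -0.41 and Rpl10l at -0.27; the median of the measured genes around Piwil2 was itself -0.68. Of the 2-cell-like list, 5 of 18 symbols were measured, and 2 rose (40%) and 3 fell (60%). Cpsf4l was at 1.16, Calcoco2 at 0.69, Ddit4l at -0.50 and Zscan4c at -0.41 in the authors' deposited table, and reads of Zscan4c may be shared with near-identical copies. Trophoblast genes, which SETDB1 is known to restrain in ES cells, were measured for 7 of 17 symbols. Of these 3 were higher (42.9%) and 2 lower (28.6%), beside 25.2% and 26.5% of all genes. Cdh3 was at 0.93, Krt8 at -0.98, Tead4 at -0.78 and Tfap2c at 0.86 in the authors' deposited table. The least expressed genes are not in the table, whose lowest mean is 3.52 CPM, so the measured members of these lists are not all of their members. Retrotransposon transcripts were not analysed here.

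**Figure D4:**
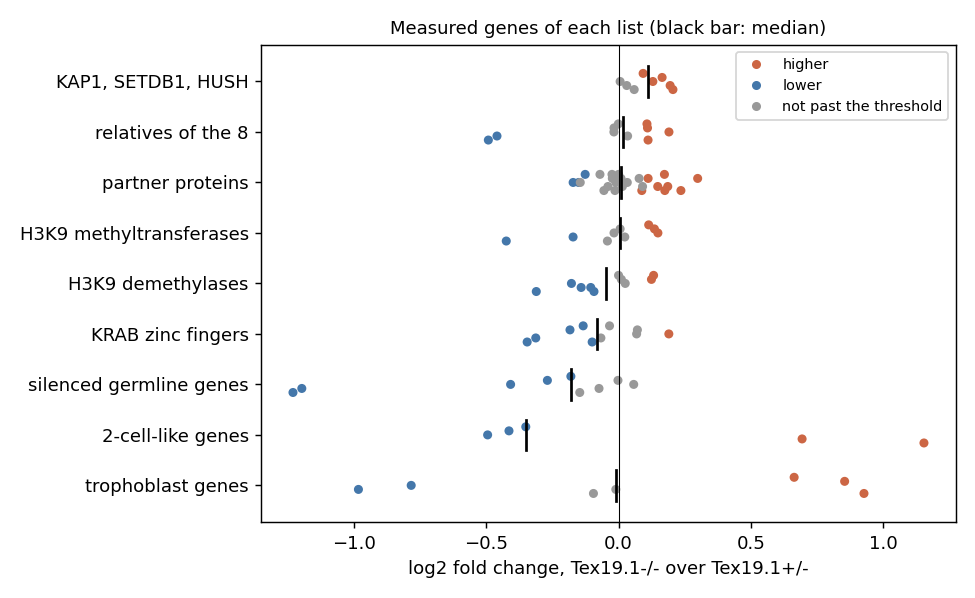
Log2 fold change (horizontal axis, Tex19.1-/- over Tex19.1+/-) of the measured genes of 9 lists, 1 point a gene, orange where higher and blue where lower at an adjusted p under 0.05 and grey otherwise; the black bar is the median. The 8 genes of the top row span 0.01 to 0.21, and their median of 0.11 compares with medians from -0.35 to 0.02 in the other rows. The points in the row of silenced germline genes are those expressed enough to be measured.

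Of the cell type markers examined, those of endoderm fell together, and those of ES cells and of fibroblasts moved in both directions. Of 15 ES cell markers, all measured, 7 were higher (46.7%) and 5 lower (33.3%), beside 25.2% and 26.5% of all genes. The summed implied level of these markers was 6874 CPM in Tex19.1+/- and 6833 CPM in Tex19.1-/- cells. Of 16 endoderm markers 11 were measured and all 11 fell. Their summed implied level was 826.7 CPM in Tex19.1+/- and 316.1 CPM in Tex19.1-/- cells. Sox17, Foxa2, Amn, Hnf4a and Afp are the 5 others and were not analysed here. The least abundant of the 11 had a mean of 7.38 CPM, where the lowest mean of the table is 3.52 CPM. Scarce markers may thus be in the table only through their level in Tex19.1+/- cells, so the 11 are not an unselected set. Of 13 fibroblast markers 3 were measured, 1 higher and 2 lower, with sums of 1035 and 1123 CPM, nearly all from Fn1 and Vim (named with their values known), which other cell types also express. In bulk RNA, fewer cells of a type and less RNA per cell cannot be told apart. The part of the endoderm difference in the rises of Trim28, Mphosph8, Pphln1, Morc3 and Atf7ip was not tested.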

How the data were processed

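RNA was taken from 3 Tex19.1+/- and 3 Tex19.1-/- ES cell samples, and stranded mRNA libraries were sequenced in pairs. Tools named in the submitters' processing notes are TopHat2 2.1.0, Trim Galore 0.4.1, edgeR with no version and HTSeq 0.11.2, and the build is mm10. Annotation, strand setting, low-count filter and test design are each not given in the sources used here. For each of 10128 genes the deposited table holds, per the file headers, the authors' log2 fold change, log2 CPM mean, p-value and false discovery rate. The deposited adjusted p-values and Benjamini-Hochberg values recomputed here differ by at most 6.7e-05.

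The planned count model per library was replaced by these values, with a threshold of 0.05 on the adjusted p. Implied errors, levels and medians were computed with numpy 2.4.6, pandas 2.3.3 and scipy 1.17.1. The code for the p-value adjustment, implied error, trend and like-expression median was run on simulated data. The simulated p-values came from the normal formula that the implied error inverts, so that check covers the code and not the deposited p-values. The implied levels were not checked in this way. Positions come from RefSeq on GRCm38.p6, the assembly of mm10: 9451 genes matched by symbol and 228 by synonym, and 449 had none. Strand, transcript length and GC content come from GENCODE M21. All 8 genes matched the RefSeq promoter table.

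The 8 genes and the other 11 gene lists were chosen with earlier results of these data known. Named are all 8 genes, up to 4 genes of smallest p-value from each of the other lists that are not cell type markers, and the nearest measured gene on each side. Named beyond that rule, with their values known, are Cbx3, Cbx5, Sumo2, Sumo3, Pias1, Zfp57, Zfp445, Fn1 and Vim. Alternatives were a threshold of 0.01, Bonferroni adjustment, genes of at least 16 CPM, a log2 size of at least 0.2, and fold changes minus the median of all genes, of the 301 genes of like expression, of the 20 genes on each side, or a lowess trend on GC content and length (span 0.3, statsmodels 0.14.6).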

Additional observations from a re-analysis of the deposited data

How the results depend on the processing

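Of the 8 genes, 5 passed at the main threshold and when genes under 16 CPM were left out (all genes: 3825 of 7401 then tested, 1992 of them higher). At an adjusted p under 0.01, 4 passed and Atf7ip did not (all genes: 4187 of 10128, 1975 of them higher). Under Bonferroni adjustment 2 passed, Trim28 (adjusted p = 0.00027) and Mphosph8 (adjusted p = 0.00586), while Pphln1, Morc3 and Atf7ip did not. Of all 10128 genes 2413 passed, 970 of them higher. By share the 8 passed about as often as all genes in either direction and, on 2 genes only, more often as higher. When a log2 size of at least 0.2 was also required, 1 of the 8 passed, Trim28, with Mphosph8 just under that size. Of all 10128 genes 2957 passed, 1215 of them higher. By share the 8 passed less often than all genes in either direction, and about equally often as higher. All calls among the 8 were higher in each of these settings. In the main setting 50.8% of all genes had a value above 0. All values of the 8 were above 0 in that setting, against the median of all genes and after subtraction of the GC and length trend. Against genes of like expression 7 were, with Setdb1 at -0.02, and against the chromosome neighbourhood 7 were, with Morc2a at -0.01. The 5 genes that rose stayed above 0 in every centring tried, and the median of the 8 ranged from 0.09 to 0.13. After subtraction of that trend Atf7ip stood at 0.14, and against genes of like expression Trim28 stood at 0.14. Over all centrings Setdb1 ranged from -0.02 to 0.07, Morc2a from -0.01 to 0.05 and Fam208a from 0.03 to 0.08; the cause was not tested.

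No paired analysis was possible because values of single libraries were not used here; for the same reason the DESeq2 fit, the unfiltered fit and leaving out each replicate were not run. Depth per library is unknown, and the authors' p-values are the sole measure of error.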
